A study of Homo sapiens with 4 samples.

Results

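The genes of the cytosolic ribosomal proteins were examined in U251-MG cells, a human glioblastoma line, after lentiviral overexpression of COL8A1, which encodes the alpha-1 chain of the short-chain collagen VIII. The members were all rows of the gene count table whose symbol is RPL or RPS with a number and at most a letter and a digit, together with RPSA, RPLP0, RPLP1 and RPLP2, without the 2 such genes on the Y chromosome. This rule used names only and gave 77 of the 61806 genes of the table, 46 of the large subunit and 31 of the small subunit. They lie on 21 chromosomes, 12 of them on chromosome 19 and 7 on chromosome 3, so that they share a product and not a locus.

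Total RNA had been sequenced in 4 libraries. The 2 COL8A1 libraries came from cells infected with the pCDH-CMV-MCS-EF1-puro vector carrying the COL8A1 cDNA behind the CMV promoter, and the 2 NC libraries from cells infected with the negative control vector of the same backbone. All 4 were therefore infected U251-MG cells that the labels give as wild type in genotype, and no uninfected cells entered the comparison. The labels do not say whether the replicates came from separate cultures or infections, so every p-value here rests on the variation among 4 libraries and may reflect technical variation alone.

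A ribosome is built from ribosomal RNA and 1 copy of most ribosomal proteins per subunit, and the genes of these proteins are among the most actively transcribed in a growing cell. Their mRNAs belong to the TOP class, named for the terminal oligopyrimidine tract at the 5′ end, whose translation is controlled by mTORC1 through the protein LARP1. Ribosomal proteins made in excess of ribosomal RNA are degraded, and some of them, with RPL5 and RPL11 the best known, bind MDM2 when ribosome assembly is disturbed.

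The libraries held 31605164 and 27923796 counts in the COL8A1 cells and 30895414 and 33576228 counts in the NC cells. COL8A1 itself was at 135 and 81.3 CPM (read counts divided by a library size scaled with the TMM method) in the COL8A1 libraries, against 2.51 and 2.43 CPM in the NC libraries. The log2 fold change of COL8A1 was 5.45 (SE 0.32), with an adjusted p of 0.0681 in edgeR's quasi-likelihood test and of 1.39e-81 in DESeq2. The glioma markers VIM, NES, SOX2, SOX9 and CD44 were all at 154 CPM or more in every library, whereas GFAP was between 0.56 and 2.05 CPM, S100B between 1.36 and 2.58 CPM, and AQP4 had no count. Of the 19 markers of other cell types, 16 stayed below 2 CPM in every library, and the exceptions were CDH5 (60.1 to 78.3 CPM), SYT1 (21.3 to 28.7 CPM) and KRT19 (8.46 to 11.5 CPM).

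The 77 genes took a slightly smaller part of the COL8A1 libraries than of the NC libraries. They held 4.05% and 4.14% of all counts in the COL8A1 libraries, against 4.27% and 4.36% in the NC libraries. On TMM-scaled library sizes their summed level was 40239 and 41611 CPM with COL8A1 and 43002 and 43481 CPM with NC, which are means of 40925 ± 970 and 43241 ± 339 CPM (SD, n = 2 each) and a difference of -5.36%. The groups did not overlap, but an exact two-sided permutation test of 2 libraries against 2 cannot go below p = 0.333, the value it gave here. A sum in CPM is a share of the RNA in a library, and in bulk RNA a lower level in every cell cannot be told apart from fewer cells with a high level.

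Both subunits showed this difference in nearly the same proportion. The large subunit genes summed to 24846 and 25218 CPM in the COL8A1 libraries, against 26597 and 26454 CPM in the NC libraries, a difference of -5.63%. The small subunit genes summed to 15393 and 16393 CPM in the COL8A1 libraries, against 16405 and 17027 CPM in the NC libraries, a difference of -4.92%. Neither sum overlapped between the vectors, although in the small subunit the margin was narrow, 16393 CPM in COL8A1 replicate 2 against 16405 CPM in NC replicate 1. The log2 ratio of the large to the small subunit sum was 0.69 and 0.62 with COL8A1 and 0.70 and 0.64 with NC. This ratio parted the libraries by replicate number and not by vector, and its difference between the vectors of -0.01 had an exact two-sided permutation p of 0.667. Leaving out COL8A1 replicate 2 or NC replicate 1 turned that difference to 0.02.

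**Figure D1:**
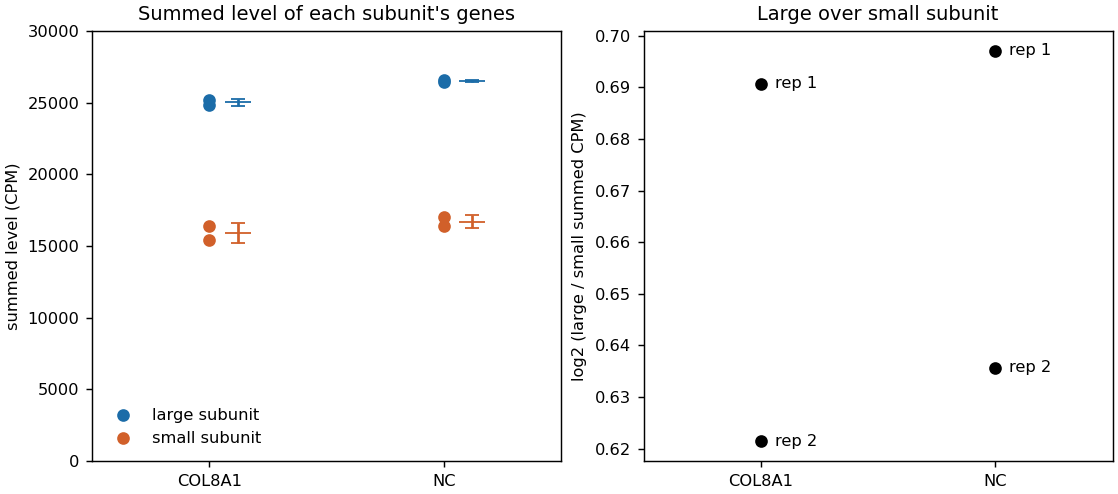
Left, summed level of the large and small subunit genes in CPM, 1 point per library, with the mean and SD (n = 2) beside the points; right, log2 ratio of the large to the small subunit sum per library. The COL8A1 points of both subunits lie below the NC points, whereas the ratio is near 0.69 in both first replicates and between 0.62 and 0.64 in both second replicates.

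No single ribosomal protein gene passed the test. All 77 passed the filter on low counts, and 0 of 77 had an adjusted p under 0.05 in edgeR, where 2 of 17030 genes tested did (0.0117%), and 0 of 77 in DESeq2, where 143 of 19707 did (0.726%). The smallest adjusted p of a member in edgeR was 0.591. At an unadjusted p under 0.05 in edgeR, 13 members were counted (16.9%, against 6.07% of all genes tested), 11 lower and 2 higher with COL8A1. Over all genes tested, 2.63% had such a p and were lower, and 3.44% had such a p and were higher, so the share of the members that was lower, 14.3%, was above the background and the share that was higher was not far from it. The count of 13 depended on single libraries. It was 6 without COL8A1 replicate 1, 28 without COL8A1 replicate 2, 5 without NC replicate 1, 8 without NC replicate 2, and 6 in DESeq2.

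The differences were small and mostly of the same sign. Of the 77 genes, 65 had a log2 fold change below 0 (84.4%), against 49.8% of all genes tested, and the median was -0.09, against 0.00 for all genes tested. The large subunit had 37 of 46 genes below 0 and a median of -0.09, and the small subunit 28 of 31 and a median of -0.10. In 47 members both COL8A1 libraries were below both NC libraries (61.0%; 18.6% of all genes tested), in 2 members both were above (18.9% of all genes tested), and in 28 the groups overlapped. These are called lower or higher in both COL8A1 libraries below, and RPL32 was 1 of the 2 higher ones. Of the 12 members with a log2 fold change above 0, the largest values were those of RPS3A and RPL32, and RPL19, RPL6, RPL39, RPL14, RPL17, RPL7A, RPL23, RPL13A and RPS2 followed below 0.15, some of them named only after their values were seen. For a background of like depth, chosen after the values were seen, the 2340 genes with a mean of 100 CPM or more were used. Of these, 54.7% had a log2 fold change below 0, and 22.7% had both COL8A1 libraries below both NC libraries. In edgeR, 3.93% were lower with an unadjusted p under 0.05. In either direction 9.40% had such a p, against 16.9% of the members, and 128 of the 2340 genes had such a p and were higher. All members were measured in the same 4 libraries, so their number adds no replicates.

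The size of the typical difference was close to that between replicates. The median absolute difference between the replicates of a member was 0.10 on the log2 scale in the COL8A1 libraries and 0.05 in the NC libraries, and the median SE of a log2 fold change was 0.07. Counting error was smaller than this. The least member count in any library was 2706, of RPL17, with a counting error of 1.92% in that library. The greatest was 67772, of RPS2. Precision for these genes is thus limited more by the number of libraries than by depth.

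**Figure D2:**
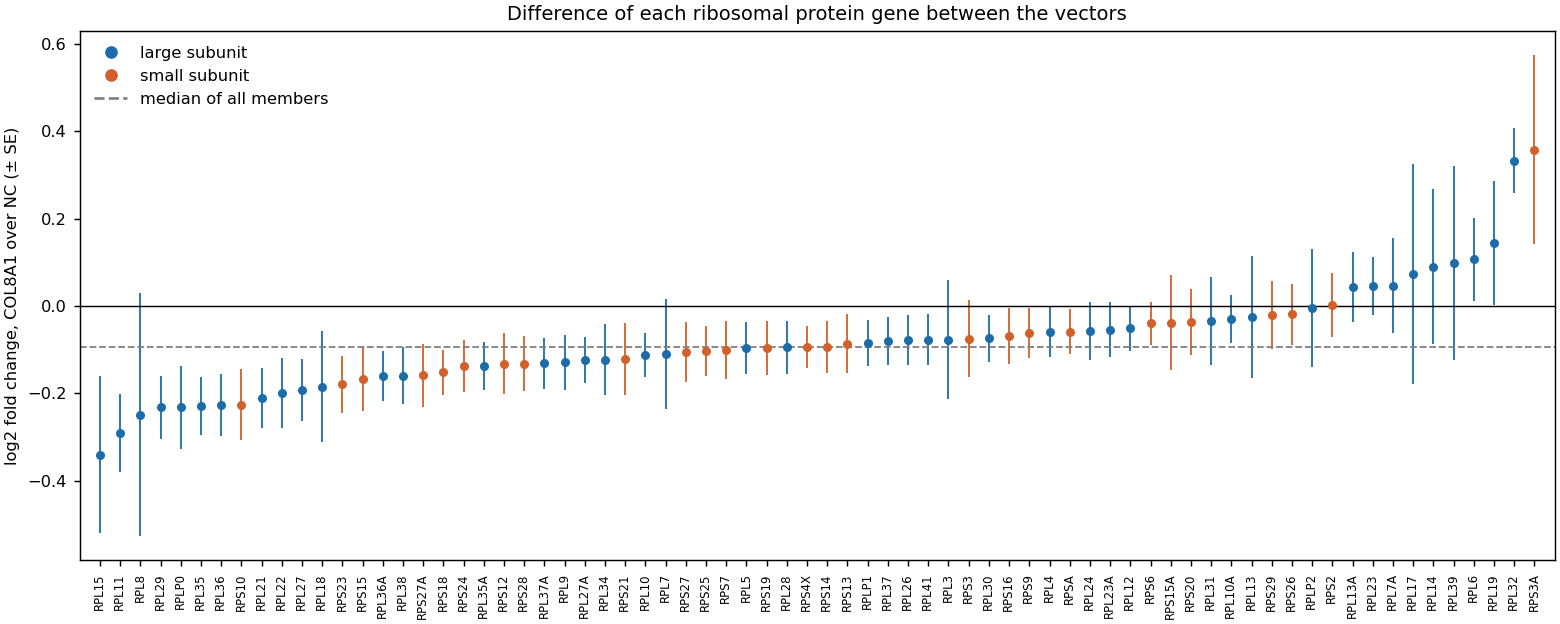
Log2 fold change of 72 of the 77 genes, COL8A1 over NC, with its SE as a vertical line, in rising order and coloured by subunit; the dashed line is the median of all members, -0.09. Most points lie between -0.25 and 0, and the lowest and the highest gene, RPL15 and RPS3A, have wider errors than most.

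The shift was uneven between the 2 COL8A1 libraries. COL8A1 replicate 1 had the lowest of the 4 values in 56 of the 77 genes, COL8A1 replicate 2 in 9, NC replicate 1 in 7 and NC replicate 2 in 5. The highest value was in COL8A1 replicate 1 for 3 genes, in COL8A1 replicate 2 for 9, in NC replicate 1 for 20 and in NC replicate 2 for 45. The median deviation of a member from its own mean over the 4 libraries was -0.09 and -0.01 on the log2 scale in the COL8A1 libraries and 0.04 and 0.06 in the NC libraries. COL8A1 replicate 1 was also the library with the highest COL8A1 level, 135 CPM, and the most genes detected, 23546, and the part of these in the result was not tested. Without it, 60 of 77 genes were still below 0 and the median was -0.05, and without COL8A1 replicate 2, 65 genes were below 0 and the median was -0.14.

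**Figure D3:**
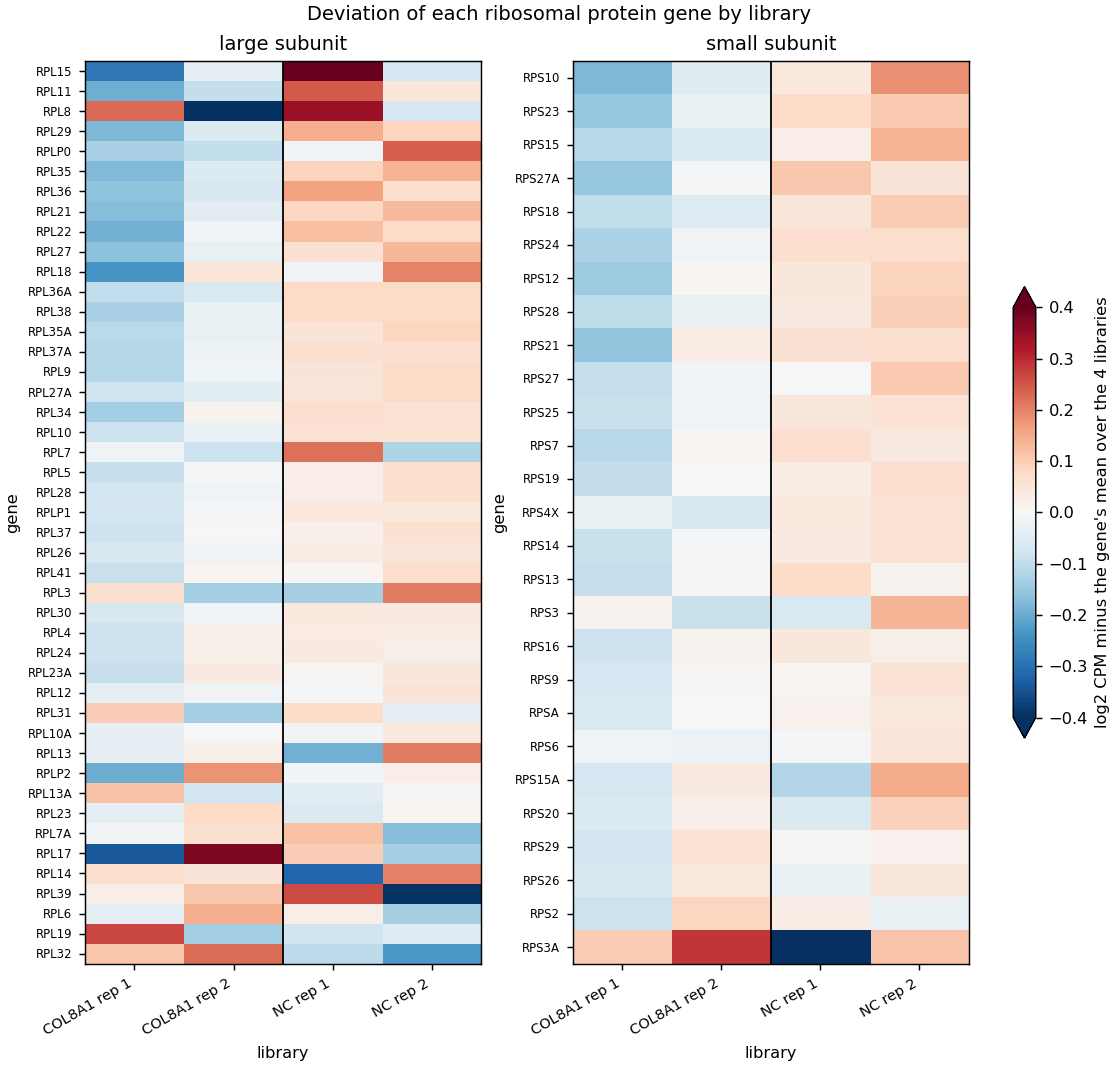
Deviation of each of 72 genes from its own mean over the 4 libraries, in log2 CPM, with large subunit genes on the left and small subunit genes on the right, COL8A1 libraries left of the line in each panel, and genes ordered from the lowest log2 fold change down to the highest. The column of COL8A1 replicate 1 is the bluest (median -0.09), that of COL8A1 replicate 2 is near white (median -0.01), and single genes such as RPL8, RPL17, RPL39 and RPS3A run against the rest of their column.

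The member with the smallest p, RPL32, ran against the others. RPL32, a protein of the large subunit whose gene lies at chr3:12834485-12841588 on the minus strand (hg38, GENCODE 29), was at 616 and 666 CPM in the COL8A1 libraries and at 531 and 487 CPM in the NC libraries. Both COL8A1 values were above both NC values, and in edgeR the log2 fold change was 0.33 (SE 0.07), the unadjusted p 0.00774 and the adjusted p 0.591.

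Of the 10 smallest p-values, 8 belonged to genes that were lower in both COL8A1 libraries. RPL35, which sits at the exit of the tunnel through which the nascent chain leaves the ribosome, was at 369.7 and 402 CPM with COL8A1 and 444 and 459.7 CPM with NC (log2 fold change -0.23, SE 0.07; unadjusted p 0.0214 in edgeR). The gap between the vectors was wider here than the gap between replicates. RPL11, which binds the 5S ribosomal RNA, was at 422 and 452 CPM with COL8A1 and 571 and 498 CPM with NC (-0.29, SE 0.09; -0.19 without NC replicate 1), and it was the lowest of the genes whose groups did not overlap.

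Another 5 of these genes differed by at most 0.23 on the log2 scale. RPL36, a small protein of the large subunit, was at 262 and 280.1 CPM with COL8A1 and 327 and 306 CPM with NC (-0.23, SE 0.07). RPL29, a large subunit protein also known for binding heparin, was at 198 and 216 CPM with COL8A1 and 248 and 238 CPM with NC (-0.23, SE 0.07). RPL21 was at 334 and 365 CPM with COL8A1 and 397 and 411 CPM with NC (-0.21, SE 0.07). For each of these, the COL8A1 libraries were the 2 lowest. RPS18, a head protein of the small subunit and a common reference gene for quantitative PCR, was at 793 and 819.7 CPM with COL8A1 and 879.7 and 912 CPM with NC (-0.15, SE 0.05). RPL36A, encoded on the X chromosome, was at 261 and 267 CPM with COL8A1 and 295 CPM in each NC library (-0.16, SE 0.06). All of them had an adjusted p of 0.65 or more in edgeR.

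**Figure D4:**
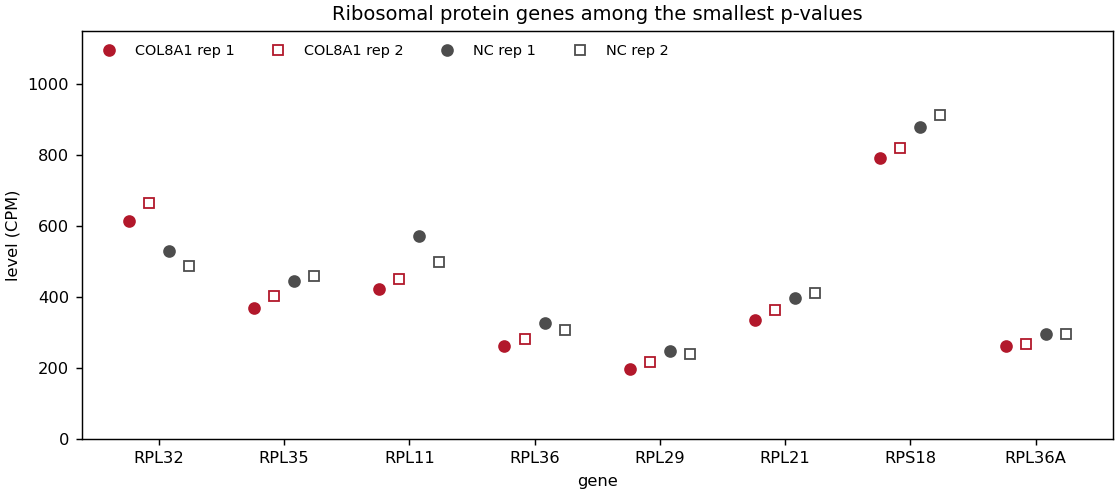
Level in CPM of 8 genes among the 10 with the smallest unadjusted p, 1 symbol per library, with COL8A1 in red left of NC in grey. RPL32, on the left, is higher in both COL8A1 libraries, and the other 7 genes are lower in both. Among these 7, RPL11 has the largest difference in CPM between the means of the vectors.

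Several of these genes have a run of pyrimidines near the start site, the feature for which TOP mRNAs are named. The following windows run from 15 bases before to 15 bases after the transcription start given by RefSeq on GRCh38.p14, 5′ to 3′ on the strand of the gene. They are shown for members among the smallest p-values and for RPLP0, and capitals mark the longest run of 8 or more pyrimidines.
RPL35, chr9:124861943-124861972, minus strand: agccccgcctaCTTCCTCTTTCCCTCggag
RPL11, chr1:23691791-23691820, plus strand: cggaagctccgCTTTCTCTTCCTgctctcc
RPL29, chr3:51995881-51995910, minus strand: caccgcagCCCCTTTCTCTTCCggttctag
RPL21, chr13:27251543-27251572, plus strand: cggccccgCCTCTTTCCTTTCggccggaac
RPS18, chr6:33272060-33272089, plus strand: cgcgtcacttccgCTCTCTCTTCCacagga
RPL36A, chrX:101390996-101391025, plus strand: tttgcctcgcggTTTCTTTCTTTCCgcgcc
RPLP0, chr12:120201097-120201126, minus strand: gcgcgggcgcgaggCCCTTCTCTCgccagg

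The windows of RPL32, RPL36 and RPS4X hold no run of 8 pyrimidines and are given for contrast in run length only. Their longest runs were 6, 7 and 5 bases, which does not show that these mRNAs lack a TOP tract. RPL32 is the gene with the highest level in COL8A1 cells relative to NC among those whose groups did not overlap, RPL36 is among the 10 smallest p-values on the lower side, and RPS4X lies near the median of the members.
RPL32, chr3:12840436-12840465, minus strand: ggtgaggtgacccttgacctcctgggatcg
RPL36, chr19:5690280-5690309, plus strand: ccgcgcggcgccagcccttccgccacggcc
RPS4X, chrX:72277234-72277263, minus strand: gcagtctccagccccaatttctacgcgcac

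Of the 77 genes, 62 were found in the RefSeq promoter table, which gives 250 bases before and 50 bases after the start. Where a gene had several starts, as RPL32 with 3, the start with the longest run was taken. A run of at least 8 pyrimidines (C or T) on the gene strand within 15 bases of the start was present in 51 of the 62 (82.3%), against 16.5% of the 27305 symbols in the table, and in 31 of 38 large subunit and 20 of 24 small subunit genes. The 51 genes with the run had a median log2 fold change of -0.10 and the 11 without it a median of -0.08, a difference that was not tested. The 11 were RPL3, RPL6, RPL12, RPL15, RPL27, RPL32, RPL36, RPS3A, RPS4X, RPS15 and RPS29. The longest runs of RPL36, RPS3A and RPS15 were 7 bases, so the cut-off of 8 does not sort TOP mRNAs from others.

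Other motifs were searched over the 300 bases by their letters alone. CTTTCC on the gene strand, which can lie within the pyrimidine run, was in 41.9% of the 62 genes and 16.6% of all symbols. CTTCCG on either strand, a form of the motif bound by ETS factors that can overlap the run by its first 5 letters, was in 64.5% of the 62 genes and 22.6% of all symbols, and ATGGCGG on either strand, a form of the YY1 motif whose last 3 letters can overlap the reverse complement of CTTCCG, was in 22.6% and 6.66%. TATAAA within 60 bases before the start, on the gene strand, was in 3.23% of the 62 genes and 3.52% of all symbols. The median log2 fold change of the genes with and without a motif was -0.09 and -0.09 for CTTTCC, -0.10 and -0.09 for CTTCCG, -0.08 and -0.10 for ATGGCGG, and -0.18 and -0.09 for TATAAA, which only 2 genes held. RPL5, RPL7, RPL8, RPL23, RPL23A, RPL30, RPL37, RPS2, RPS15A and RPS20 were among the genes not found in the promoter table.

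By position in the ribosome, most members of the stalk, the 5S particle and the small subunit were below 0, and those of the tunnel exit were divided. The P stalk, which recruits the translation factors, had all 3 genes below 0. RPLP0, its anchor, was at 1142 and 1168 CPM with COL8A1 and 1238 and 1475 CPM with NC (log2 fold change -0.23, SE 0.09; -0.35 without NC replicate 1 and -0.10 without NC replicate 2). RPLP1 was at 697 and 729 CPM with COL8A1 and 755 and 757 CPM with NC (-0.08, SE 0.05; -0.05 without COL8A1 replicate 1). Both genes were lower in both COL8A1 libraries, whereas RPLP2, the partner of RPLP1, was at 256 and 333 CPM with COL8A1 and 292 and 299 CPM with NC, so that the COL8A1 values lay on either side of the NC values. None of the 3 had an unadjusted p under 0.05 in edgeR.

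The 5S particle, formed by RPL5, RPL11 and the 5S ribosomal RNA, had both protein genes lower in both COL8A1 libraries. RPL5 was at 473 and 502 CPM with COL8A1 and 514 and 529 CPM with NC (-0.10, SE 0.06; -0.05 without COL8A1 replicate 1), a smaller difference than that of RPL11. MDM2, the p53 ubiquitin ligase that this particle binds, was at 154 and 161 CPM with COL8A1 and 136 and 139 CPM with NC (0.20, SE 0.07; unadjusted p 0.0329 and adjusted p 0.783 in edgeR).

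At the exit of the polypeptide tunnel, 4 of 7 genes were below 0, with a median of -0.03. The 3 above 0 were RPL17, RPL19 and RPL39. In each of them the replicates of a vector differed by more than 0.3 on the log2 scale, so their sign says little. RPL35 and RPL26 were lower in both COL8A1 libraries and the other 5 overlapped. In the head of the small subunit, 13 of 14 genes were below 0 with a median of -0.12. In the rest of the small subunit, 15 of 17 were below 0 with a median of -0.09. The numbers of these genes that were lower in both COL8A1 libraries were 10 of 14 in the head (71.4%) and 12 of 17 outside it (70.6%), against 18.6% of all genes tested.

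A partial list held 15 members known as Diamond-Blackfan anaemia genes, whose loss of 1 copy impairs red cell production. All 15 were below 0 and their median was -0.13. Of the 15, 12 were lower in both COL8A1 libraries (80.0%), against 61.0% of all members and 18.6% of all genes tested. The share depends on which genes are listed, and its difference from that of all members was not tested. RPL11 and RPS10 were among the 3 smallest p-values of this list. RPS10 was at 411 and 450.1 CPM with COL8A1 and 479 and 528 CPM with NC (-0.23, SE 0.08; unadjusted p 0.0426 and adjusted p 0.804 in edgeR). None of the 15 passed the adjusted test. Those genes belong to both subunits, so the list overlaps the groups above.

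RPS6, RPS4X and RPSA had differences no larger than the median of the members, -0.09. RPS6, the target of S6 kinase below mTORC1, was at 996 and 992 CPM with COL8A1 and 1002 and 1041 CPM with NC (-0.04, SE 0.05; -0.07 without NC replicate 1 and -0.02 without NC replicate 2), the smallest difference among the members whose groups did not overlap. RPS4X was at 805 and 785 CPM with COL8A1 and 844 and 853 CPM with NC (-0.09, SE 0.05). RPSA, also described as a laminin receptor, was at 889.7 and 929.8 CPM with COL8A1 and 939 and 957 CPM with NC (-0.06, SE 0.05; -0.03 without COL8A1 replicate 1 and -0.09 without COL8A1 replicate 2). These 3 were lower in both COL8A1 libraries by less than 0.10 on the log2 scale.

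RPS27A and FAU, which make a ribosomal protein fused to ubiquitin or a ubiquitin-like protein, were lower in both COL8A1 libraries. RPS27A was at 461 and 509 CPM with COL8A1 and 552 and 531 CPM with NC (-0.16, SE 0.07; -0.09 without COL8A1 replicate 1). FAU, which encodes RPS30 with a ubiquitin-like leader, was at 186 and 217 CPM with COL8A1 and 226 and 233 CPM with NC (-0.19, SE 0.09). RACK1, another ribosomal protein gene with a name of its own, overlapped between the vectors, at 250.7 and 214 CPM with COL8A1 and 255 and 241 CPM with NC.

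RPL22 and its paralog RPL22L1 were both lower with COL8A1. RPL22 was at 381 and 432 CPM with COL8A1 and 473 and 459.8 CPM with NC (-0.20, SE 0.08; -0.11 without COL8A1 replicate 1). RPL22L1, which RPL22 is known to repress in mice, was at 18.0 and 19.5 CPM with COL8A1 and 22.4 and 25.5 CPM with NC (-0.36, SE 0.12; unadjusted p 0.0384 and adjusted p 0.804 in edgeR). Neither gene's groups overlapped. Of the other paralogs, RPL7L1 had a log2 fold change of -0.15, RPS27L of 0.09, RPL36AL of 0.04 and RPL26L1 of 0.00, and RPL3L, RPL10L and RPL39L had 0 counts in every library, which allows up to 0.0889 to 0.108 CPM (3 counts per library, counting error only). The limit does not cover reads that match several genes, whose handling in the counting is not given.

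In 11 members the replicates of a vector differed by more than 0.3 on the log2 scale, and for these the comparison between the vectors says little. RPL8, which lies near the peptidyl transferase centre, was at 1226 and 737 CPM with COL8A1 and 1332 and 1000 CPM with NC (-0.25, SE 0.28). In both vectors its first replicate was the higher. RPL17, a tunnel protein, was at 85.1 and 139 CPM with COL8A1 and 115 and 98.2 CPM with NC (0.07, SE 0.25), with both NC values inside the COL8A1 range.

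RPL39, which lines the tunnel, was at 475 and 503 CPM with COL8A1 and 559 and 355 CPM with NC (0.10, SE 0.22), and here the NC replicates set the spread. RPS3A, a protein of the small subunit near the mRNA exit, had the largest positive log2 fold change of the members, 0.36 (SE 0.22). It was at 526 and 599 CPM with COL8A1 and 347 and 531 CPM with NC, so that the difference rested on NC replicate 1, and without that library the log2 fold change was 0.08. At the other end, RPL15, chosen after its values were seen, had the most negative log2 fold change, -0.34 (SE 0.18). It was at 606 and 719 CPM with COL8A1 and 974 and 704 CPM with NC, and the groups overlapped. The other 6 genes of this kind were RPL3, RPL7, RPL13, RPL14, RPL19 and RPLP2.

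**Figure D5:**
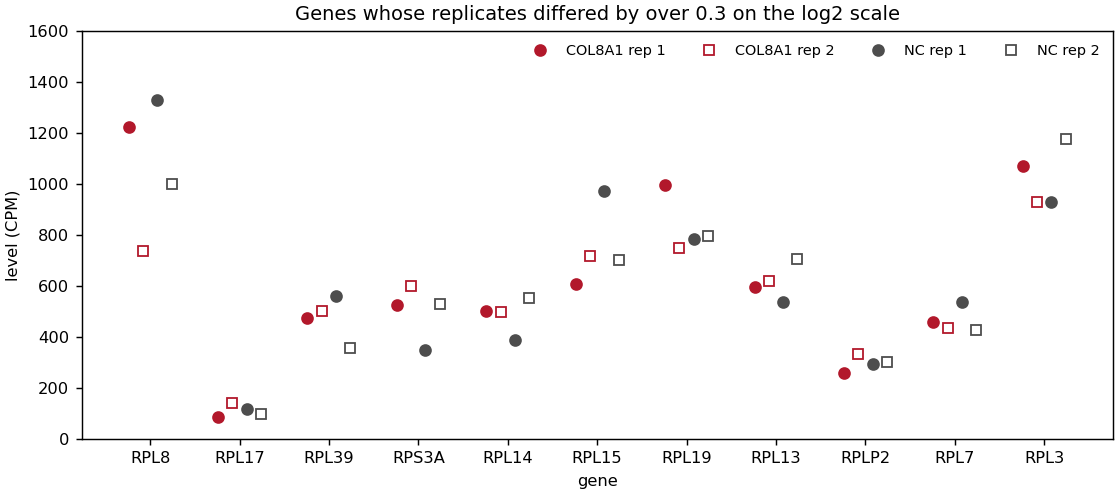
Level in CPM of the 11 genes whose replicates differed by over 0.3 on the log2 scale in at least 1 vector, 1 symbol per library, with COL8A1 in red left of NC in grey. The COL8A1 and NC symbols of every gene overlap in level, and RPL8 has the widest gap between replicates in CPM, at 1226 and 737 CPM with COL8A1.

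Levels between genes were compared per kilobase of mRNA, using the shortest complete transcript of GENCODE 29 with the principal coding length. On this scale RPL41, whose product is the smallest ribosomal protein, was the highest, with 2266 ± 111 CPM per kb in the COL8A1 libraries and 2390.0 ± 72.5 CPM per kb in the NC libraries (SD, n = 2 each). RPS2, at the mRNA entry of the small subunit, followed with 2087 ± 177 CPM per kb with COL8A1 and 2084 ± 59.7 CPM per kb with NC. In the COL8A1 libraries the ranges of these genes overlapped, and in the NC libraries RPL41 was the higher in both. RPS18 had 1316 ± 30.4 with COL8A1 and 1462 ± 37.5 CPM per kb with NC. RPL12, at the base of the stalk, had 1313 ± 13.8 with COL8A1 and 1360 ± 40.9 CPM per kb with NC, and in the COL8A1 libraries RPS18 and RPL12 did not differ beyond their spread.

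The lowest levels per kilobase belonged to RPL27A, RPL37, RPS23 and RPL37A, and they depended on the annotated length. RPL27A had 101 ± 1.66 CPM per kb with COL8A1 and 110 ± 1.45 with NC, and RPL37 had 105 ± 4.21 with COL8A1 and 111 ± 2.26 with NC. RPS23 had 109.8 ± 6.47 with COL8A1 and 124 ± 1.57 with NC, and RPL37A had 149 ± 6.84 with COL8A1 and 163 ± 0.29 with NC. The mRNA models of these 4 are 3437 to 7686 bases long, and per kilobase of coding sequence the same genes ranked 25, 3, 43 and 7 of 77. RPL41 ranked 1 by mRNA, by all exons and by coding length, whereas RPL17 ranked 73, 74 and 77 and RPL34, chosen after its values were seen, 69, 76 and 76. By mRNA length the highest level was 22.1 times the lowest, that of RPL27A, so this ratio also depends on the annotated length. On the same scale 62 of 77 genes were within 2-fold of the median of 614 CPM per kb.

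Of the 77 genes, 28 hold a small nucleolar RNA (snoRNA) gene inside, 59 snoRNA genes in all, most of which guide modification of ribosomal RNA from spliced introns. These 28 hosts had 20 genes below 0, a median of -0.06 and 13 genes lower in both COL8A1 libraries. The 49 members without a snoRNA had 45 genes below 0, a median of -0.12 and 34 genes lower in both COL8A1 libraries. Among all genes tested, 18.6% were lower in both COL8A1 libraries, and among all members 61.0%. The difference between hosts and other members was not tested.

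Other genes of the ribosome pathway were described from lists by their counts. Of 50 ribosome biogenesis factors, 46 were below 0 (49.8% of all genes tested), with a median of -0.14, and 24 were lower in both COL8A1 libraries (48.0%, against 18.6% of all genes tested). Of the 50, 0 passed the adjusted test in edgeR or DESeq2, and at an unadjusted p under 0.05 in edgeR 5 were lower (10.0%, against 2.63% of all genes tested) and 0 higher. PES1, a factor of large subunit maturation, was at 81.9 and 83.8 CPM with COL8A1 and 108 and 102 CPM with NC (-0.34, SE 0.08). NOP56, a core protein of box C/D snoRNA particles, was at 129 and 115 CPM with COL8A1 and 161 and 156 CPM with NC (-0.38, SE 0.09), and WDR43, a factor of small subunit processing, was at 119 and 127 CPM with COL8A1 and 149 and 139.8 CPM with NC (-0.23, SE 0.08). In these 3 genes the groups did not overlap.

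Of 18 other TOP genes, which encode translation factors and related proteins, 15 were below 0 with a median of -0.05. NACA, a subunit of the nascent chain complex, was at 307 and 332 CPM with COL8A1 and 446 and 409.5 CPM with NC (-0.42, SE 0.08), with an adjusted p of 0.497 in edgeR and 0.0444 in DESeq2. EEF1A1, the elongation factor that delivers tRNA, was at 5571 and 5793 CPM with COL8A1 and 6195 and 6048 CPM with NC (-0.11, SE 0.04). EIF4B, an initiation factor, was higher with COL8A1, at 347 and 498 CPM, than with NC, at 327 and 319 CPM (0.39, SE 0.18).

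RNA polymerase I genes showed no common direction, with 7 of 16 below 0 and a median of 0.01. POLR1A, the largest subunit, was at 153 and 165 CPM with COL8A1 and 194 and 173 CPM with NC (-0.20, SE 0.09), TCOF1, a factor of ribosomal RNA transcription, differed by -0.10 on the log2 scale (SE 0.07), and POLR1G, another subunit, by 0.32 (SE 0.27). Of 7 chaperones that escort single ribosomal proteins, 6 were below 0, with HEATR3 at -0.34 (SE 0.17), GRWD1 at -0.19 (SE 0.10) and BCCIP at -0.20 (SE 0.12). Among 16 regulators of these genes and of their checkpoint, 9 were below 0. MLST8, a subunit of mTOR complexes, was at 31.0 and 29.7 CPM with COL8A1 and 36.6 and 45.1 CPM with NC (-0.43, SE 0.14), and TSC1, which restrains mTORC1, was at 32.7 and 29.6 CPM with COL8A1 and 26.2 and 24.5 CPM with NC (0.30, SE 0.11). None of the genes in these lists passed the adjusted test in edgeR.

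Other families that encode large complexes were set beside the members. Of the 78 mitochondrial ribosomal protein genes, 52 were below 0 (66.7%) with a median of -0.05, and 25 were lower in both COL8A1 libraries (32.1%). Of the 46 proteasome subunit genes that passed the filter, of 48 listed, 36 were below 0 (78.3%) with a median of -0.07, and 13 were lower in both COL8A1 libraries (28.3%). The shares lower in both COL8A1 libraries stand against 18.6% of all genes tested and 22.7% of genes at 100 CPM or more. By this measure both families were close to each other and somewhat above these backgrounds, which was not tested. The shares below 0 stand against 49.8% of all genes tested and 54.7% of genes at 100 CPM or more, and both families were above these. The cytosolic ribosomal protein genes had 84.4% below 0 and a median of -0.09, and the differences between these families were not tested.

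Some members may share reads with other counted genes. Processed copies of ribosomal protein genes took up 1350 rows of the table, of which 488 had reads, and their reads came to 5.02% of those of the members. Their summed level was 2105 and 2014 CPM with COL8A1 and 2028 and 2288 CPM with NC, so that the groups overlapped. For 10 members the copies had over 10% as many reads as the parent gene. The share was 30.2% for RPL21, 28.4% for RPL7, 23.9% for RPL9 and 23.6% for RPS2. How many of these reads came from the parent was not measured, so the values of these members carry an uncertainty of unknown size. RPS2P5, the copy with the most reads, was at 424 and 280.4 CPM with COL8A1 and 228 and 430.03 CPM with NC, a wider spread than that of RPS2 itself, at 1932 and 2179 CPM with COL8A1 and 2094 and 2011 CPM with NC.

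Overlapping gene models may also have divided reads. A counted gene overlapped exons of 15 members on the same strand and of 29 on the opposite strand. Strand cannot separate reads of the same-strand overlaps, and for the opposite strand the setting is not given. On the opposite strand, PTPN11 held at most 69.6% as many reads as RPL6 in a library, with 111 shared exon bases. LONP1 held at most 43.4% as many as RPL36, with 43 shared exon bases. The read-through gene RPS10-NUDT3 held 2930 and 2579 counts with COL8A1 and 3371 and 2062 counts with NC. Summed with RPS10, an alternative chosen after the values were seen, it gave 503 and 543 CPM with COL8A1 and 588 and 589.5 CPM with NC, still without overlap. A protein-coding model that overlaps RPS15A, chosen after its values were seen, held 347 and 519 counts with COL8A1 and 2883 and 334 counts with NC. RPS15A alone overlapped between the vectors, at 294 and 316 CPM with COL8A1 and 284 and 342 CPM with NC, whereas the sum of both was 305 and 334 CPM with COL8A1 and 378 and 352 CPM with NC, which did not overlap. RPL17-C18orf32 held 873 and 357 counts with COL8A1 and 0 and 944 counts with NC, and the sum with RPL17 was 113 and 152 CPM with COL8A1 and 115 and 126 CPM with NC. For RPS13, also chosen after its values were seen, the overlapping gene PIK3C2A held at most 44.6% as many reads as the member in a library. Their exons share only 58 bases, and the sum takes in every read of PIK3C2A. It therefore cannot show how many reads of RPS13 were counted elsewhere. RPS13 alone was lower in both COL8A1 libraries, at 227 and 242 CPM with COL8A1 and 254 and 244 CPM with NC, whereas the sum, 327 and 349 CPM with COL8A1 and 363 and 340.4 CPM with NC, overlapped.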

How the data were processed

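Total RNA of 2 COL8A1 and 2 NC libraries of U251-MG cells was analysed from the deposited table of raw read counts per gene, which the authors had not normalized. Per the submitters' processing notes, reads were handled with featureCounts, given there as version 0.3, HISAT2 2.2.1 and Trim Galore 0.6.9 on build hg38. No strand setting or annotation release is given in the sources used here. 1 record without a gene was left out. Reads that match several copies of a gene may be split or dropped by such counting, and PCR copies were counted as reads.

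Groups came from the titles. In R 4.3.3, edgeR 4.0.16 was used with filterByExpr (17030 genes kept), TMM factors and the quasi-likelihood F-test with vector as the only term; the Benjamini-Hochberg adjustment ran over every gene tested and calls needed an adjusted p under 0.05. The fit had 2 residual and 2.64 prior degrees of freedom. The SE of a log2 fold change is its size divided by the square root of F. Sums were compared with exact two-sided permutation tests. Alternatives were DESeq2 1.42.0, other scalings and filters, a replicate block and leaving out each library. Gene models are those of GENCODE 29 and promoters those of RefSeq, GRCh38.p14.

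Members, lists and tests were chosen with earlier results of these data known. The members named were the 10 with the smallest p, the 4 highest and 4 lowest per kilobase, the 4 with the widest replicate difference, and RPLP0, RPLP1, RPLP2, RPL5, RPL11, RPS6, RPS27A, RPSA, RPS4X and RPL22. Beside them stand COL8A1, the members with other names, the paralogs and the 3 smallest p-values of each other list. Any further gene was chosen after its values were seen. The totals of 27923796 to 33576228 counts gave every member at least 2706 counts per library. A few genes that the rule or a list names are not reported here singly and are left out of the plots of single genes, and they remain in all counts, sums and medians.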

Additional observations from a re-analysis of the deposited data

How the results depend on the processing

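The count of 0 members past the adjusted threshold was the same under every alternative run, and the median below 0 kept its sign in all of them, as did the lower sum. The number of members with an unadjusted p under 0.05, 13 with edgeR, was 6 with DESeq2 and ran from 5 to 28 when each library was left out in turn. In the same fits the median log2 fold change ran from -0.14 to -0.054 for all members, from -0.13 to -0.061 for the large subunit and from -0.14 to -0.049 for the small subunit, and the difference in summed level from -3002 to -1630 CPM. The difference in the log2 ratio of the subunits, -0.01, ran from -0.045 to 0.024. RPS2, at 0.00, reversed to -0.000929 with DESeq2, to -0.00152 with TMM factors computed without the members, to -0.00217 without a low-count filter and to -0.000263 with the replicate block, and ran from -0.091 to 0.086 without single libraries. Among the other named members, reversals occurred only without single libraries, where RPLP2 ran from -0.21 to 0.17, RPL8 from -0.66 to 0.068, RPL17 from -0.33 to 0.39 and RPL39 from -0.20 to 0.46; the cause was not tested. The 2 genes called in the whole table became 17 without a low-count filter, 143 with DESeq2, 1 with the replicate block and 0 to 3 without single libraries. The labels give libraries with the same replicate number no other link. The differences between replicates in the 2 vectors correlated at 0.02 over 10406 genes, which cannot show whether such libraries were handled together. The ratio of the subunits did part the libraries by replicate number. With the replicate block, 11 members had an unadjusted p under 0.05, 8 of them lower, and the smallest adjusted p in edgeR was 0.936. With 2 libraries a vector, the number of libraries limits these results more than depth does.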
